A study of Mus musculus with 8 samples.

Results

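The bone morphogenetic protein (BMP) ligands and their direct target genes were followed through 10 genes of 1 pathway: the ligand genes Bmp3, Bmp4 and Bmp7, the receptor gene Bmpr1b, the target genes Id1, Id2, Id3 and Id4, and the inhibitory SMAD genes Smad6 and Smad7. They were chosen by name, with earlier results of these data known. All 10 were present among the 13607 genes of the deposited count table. The samples were 8 cultures of mouse astrocytes on a C57BL/6J background, all with floxed alleles of Yap and Taz (Yapf/f;Tazf/f), in 4 groups of 2 libraries lettered A and B. Gliomaspheres (P1) were floating spheres grown with doxycycline and DMSO, with HER2CA induced, and were collected 3 weeks after the experiment began. Astrocytes labelled 4OH-TAM had HER2CA induced by doxycycline and received 1 µM 4-hydroxytamoxifen (4OH-TAM) up to day 15, when they were collected. HER2CA astrocytes were collected on the same day after doxycycline without 4OH-TAM; 1 label gives them DMSO and another calls them untreated. Control astrocytes were not transformed and had no doxycycline.

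HER2CA is a doxycycline-driven form of the receptor tyrosine kinase HER2, delivered by lentivirus together with the transactivator rtTA and with CreERT2, a recombinase that 4OH-TAM activates to delete floxed DNA. The labels name no promoter for these constructs, do not say whether control astrocytes carried them, and do not say whether A and B came from separate animals or cultures, so the spread between A and B may be technical. Gliomaspheres differ from HER2CA astrocytes both in growing in suspension and in age.

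BMPs are secreted dimers of the TGF-β superfamily that draw type I receptors such as BMPR1B and type II receptors such as BMPR2 into a complex. The activated type I receptor phosphorylates SMAD1, SMAD5 and SMAD9, which enter the nucleus with SMAD4 and switch on direct targets, among them the Id genes. Id proteins are helix-loop-helix proteins without a DNA-binding region; they pair with E proteins and keep them from working with lineage factors such as the OLIG proteins. SMAD6 and SMAD7 are themselves induced by the pathway and hold it back. In the brain, BMP signals turn neural progenitors towards the astrocyte fate and away from the oligodendrocyte fate, and BMP4 does the same to many glioma stem cells.

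Sequencing depth was 15517708 to 28231426 counted reads per library. In gliomasphere library B, 36.1% of the reads fell on the ribosomal RNA gene Rn45s, against 0.984% to 2.92% in the other 7. Its 2 scarcest members, Bmp4 and Smad6, were read only 3 and 4 times there. Another gene, Lars2, took 2.77% of its reads, against 0.0457% to 0.1655% in the other 7. The chi-square per degree of freedom between A and B, which grows as their counts differ, was 733 for gliomaspheres. Without Rn45s and Lars2 it was 21.8 for gliomaspheres and 4.02 to 9.34 for the other groups, so the gliomasphere libraries were the least alike. Levels are given as CPM, a gene's count set to a common library size after TMM, edgeR's trimmed-mean scaling of libraries. The floxed genes were read first as a check of the labels. The Yap1 level under the 4OH-TAM label was 107 and 103 CPM, beside 101 and 103 CPM in HER2CA astrocytes, and their difference did not pass the test (0.04 on the log2 scale, SE 0.0682, edgeR adjusted p = 0.569). Wwtr1, which encodes TAZ, was lower under that label, at 123 and 122 CPM, beside 194 and 210.3 CPM in HER2CA astrocytes (log2 fold change −0.73, SE 0.0687, edgeR adjusted p = 1.25e-07). Erbb2, the mouse gene for HER2, was at 21.3 and 23.98 CPM in gliomaspheres, 28.6 and 27.7 CPM under the 4OH-TAM label, 30.9 and 30.0 CPM in HER2CA astrocytes and 32.8 and 31.2 CPM in controls. Its counts therefore do not show the HER2CA construct: HER2CA astrocytes over controls came to −0.07 (log2, SE 0.0860, edgeR adjusted p = 0.461), the 4OH-TAM label over controls to −0.18 (SE 0.0862, edgeR adjusted p = 0.0813) and gliomaspheres over controls to −0.51 (SE 0.0927, edgeR adjusted p = 0.000193). Whether reads of the construct count as Erbb2 was not tested. Reads over a whole gene can miss the loss of a floxed exon, so the unchanged Yap1 level cannot show whether Yap1 was deleted. The 4OH-TAM group is therefore named by its label throughout.

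Marker genes of several cell types moved with the groups, and their part in the results below was not tested. Each sum follows its most abundant genes, and some single markers took another order. The summed level of 10 astrocyte markers was 11890 to 12280 CPM in gliomaspheres, 12430 to 12910 CPM under the 4OH-TAM label, 2743 to 2835 CPM in HER2CA astrocytes and 6407 to 7483 CPM in controls. Astrocyte markers were thus read in every library, and their sum was least in the HER2CA group. Slc1a3 gave most of the sum there, at 1464 and 1509 CPM. S100b had only 6 and 6 reads there, and Aldh1l1 was at 31.9 and 44.0 CPM there, beside 348 and 404 CPM in controls. Sox9 alone of the 10 was not lowest there, with a mean of 318 CPM beside 290 CPM in controls. Summed over 9 oligodendrocyte-lineage markers, the levels were 2995 to 3306 CPM in gliomaspheres, 907.8 to 952 CPM under the 4OH-TAM label, 110 to 118.7 CPM in HER2CA astrocytes and 468.3 to 506.1 CPM in controls. Olig1 and Olig2 gave most of the gliomasphere sum. Cspg4 and Mbp were highest in controls, and Gpr17 and Bcas1 under the 4OH-TAM label. The 7 measured microglia markers of 8 listed summed to 34.16 to 35.31 CPM in gliomaspheres, 167.2 to 174.2 CPM under the 4OH-TAM label, 26.81 to 28.39 CPM in HER2CA astrocytes and 38.55 to 43.29 CPM in controls. Fibroblast and mural markers, 7 of 8, summed to 52.18 to 56.45 CPM in gliomaspheres, 282.3 to 345.6 CPM under the 4OH-TAM label, 133.3 to 133.8 CPM in HER2CA astrocytes and 191.2 to 197.4 CPM in controls. For 2 of 5 endothelial markers the sums were 31.97 to 38.43 CPM in gliomaspheres, 25.55 to 28.72 CPM under the 4OH-TAM label, 3.001 to 3.162 CPM in HER2CA astrocytes and 11.95 to 12.4 CPM in controls. For 3 of 6 neuron markers the sums were 20.03 to 22 CPM in gliomaspheres, 60.86 to 65.53 CPM under the 4OH-TAM label, 34.33 to 38.01 CPM in HER2CA astrocytes and 67.14 to 67.47 CPM in controls. Of these, Stmn2 was lowest in gliomaspheres, but Tubb3 and Gad1 were lowest in HER2CA astrocytes. For 3 of 4 ependymal markers the sums were 96.31 to 100.4 CPM in gliomaspheres, 246.1 to 247.6 CPM under the 4OH-TAM label, 83.87 to 84.03 CPM in HER2CA astrocytes and 212.1 to 222.4 CPM in controls. Of the measured markers, Rgs5 alone was at 0, in 1 library; Aif1, Lum, Pecam1, Cdh5, Cldn5, Snap25, Syt1, Rbfox3 and Tmem212 were not in the table. In bulk cultures, fewer cells of a type and less RNA per cell cannot be told apart.

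Across the 10 genes the Id genes were low in HER2CA astrocytes and higher in the other 3 groups, while the ligands each had an order of their own. Differences were tested with edgeR's quasi-likelihood test in 1 fit over all 8 libraries, and a gene was called at a Benjamini-Hochberg adjusted p under 0.05 over all 13607 genes. Each value followed by a standard error (SE) is a log2 fold change, the first-named group over the second. Under the 4OH-TAM label, 7 of the 10 genes rose and 1 fell against HER2CA astrocytes, where 40.8% of all genes tested rose and 39.7% fell; 5 of the 10 were called with a change of at least 2-fold, against 33.2% of all genes. In HER2CA astrocytes, 2 rose and 5 fell against controls, where 37.3% of all genes rose and 38.4% fell, and 7 changed at least 2-fold, against 29.6%. Under the 4OH-TAM label against controls, 5 rose and 1 fell beside 31.0% and 28.2% of all genes, and 4 changed at least 2-fold beside 15.1%. The shares of all genes are so large that a call by itself says little about these genes.

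In gliomaspheres against controls, 3 of the 10 genes rose and 5 fell, beside 32.5% and 32.0% of all genes, and 6 changed at least 2-fold, beside 20.0%. Against HER2CA astrocytes, all 10 were called in gliomaspheres, 6 higher and 4 lower, beside 38.4% and 40.4% of all genes, and 6 changed at least 2-fold, beside 36.3%. Against the 4OH-TAM label, 1 rose and 6 fell in gliomaspheres, beside 31.3% and 29.7% of all genes, and 4 changed at least 2-fold, beside 18.6%. The median log2 fold change of the 10 genes was 0.94 under the 4OH-TAM label against HER2CA astrocytes and −0.60 in HER2CA astrocytes against controls, where the medians of all genes were 0.01 and −0.02. The comparisons share libraries, so a low level in 1 group enters each comparison that group is in.

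**Figure D1:**
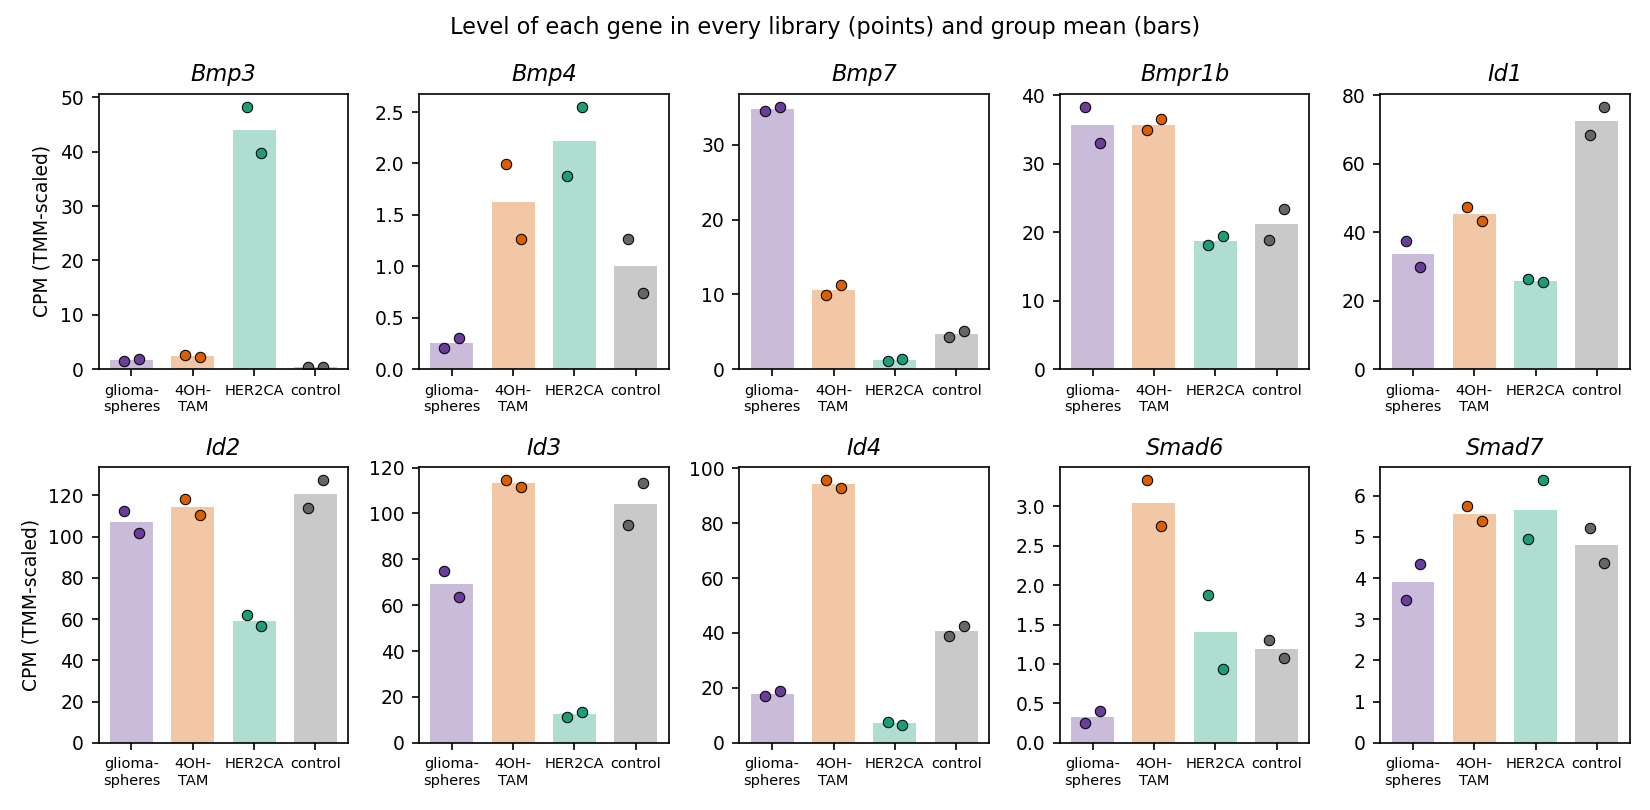
Level of each of the 10 genes in each of the 8 libraries (points, CPM with TMM-scaled library sizes, linear axis from 0, own scale for each gene), with the mean of each group as a bar; groups run gliomaspheres, 4OH-TAM label, HER2CA, control. Id3 lies at 11.3 and 13.5 CPM in HER2CA astrocytes and at 63.6 CPM or more in every other library, while Bmp3 has the opposite shape, at 48.3 and 39.7 CPM in HER2CA astrocytes and at 2.64 CPM or less elsewhere.

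Of the ligands, Bmp3 was the gene that marked HER2CA astrocytes. BMP3 is an unusual family member known mainly as an antagonist of BMP signalling in bone. It was read at 1.59 and 1.92 CPM in gliomaspheres, 2.64 and 2.33 CPM under the 4OH-TAM label, 48.3 and 39.7 CPM in HER2CA astrocytes and 0.384 and 0.412 CPM in controls. Both HER2CA libraries lay far above the other 6, and the 4 groups did not overlap. In HER2CA astrocytes Bmp3 rose by a log2 fold change of 6.77 against controls (SE 0.199, edgeR adjusted p = 9.73e-13). Under the 4OH-TAM label it was lower than in HER2CA astrocytes (log2 fold change −4.14, SE 0.148, edgeR adjusted p = 3.16e-12), yet still above controls (log2 fold change 2.63, SE 0.289, edgeR adjusted p = 2.28e-06). Gliomaspheres, too, had less than HER2CA astrocytes (−4.69, SE 0.173, edgeR adjusted p = 2.11e-12) and more than controls (2.08, SE 0.339, edgeR adjusted p = 7.7e-05). In the order of levels, HER2CA, 4OH-TAM label, gliomaspheres, control, the 2 middle groups did not pass the test (log2 fold change −0.55 for gliomaspheres over the 4OH-TAM label, SE 0.235, edgeR adjusted p = 0.0549). With upper-quartile scaling or the replicate letter as a block that last difference was called, at edgeR adjusted p = 0.0293 and 0.0362, and so it was without HER2CA library A (edgeR adjusted p = 0.0426) or B (edgeR adjusted p = 0.0417) or without Rn45s and Lars2 (edgeR adjusted p = 0.0465). The Bmp3 gene lies on the plus strand of chromosome 5, from 98854415 to 98884396 in GRCm38.

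Bmp7 was lowest in HER2CA astrocytes, where Bmp3 was highest. BMP7 is a canonical activating ligand that promotes astrocyte formation from neural progenitors. Its level was 34.5 and 35.1 CPM in gliomaspheres, 9.88 and 11.3 CPM under the 4OH-TAM label, 1.05 and 1.41 CPM in HER2CA astrocytes and 4.34 and 5.11 CPM in controls. No 2 groups overlapped, and each neighbouring pair in this order passed the test. Bmp7 fell in HER2CA astrocytes against controls (log2 fold change −1.90, SE 0.199, edgeR adjusted p = 4.5e-07) and rose under the 4OH-TAM label against HER2CA astrocytes (log2 fold change 3.07, SE 0.179, edgeR adjusted p = 5.53e-10) and against controls (1.17, SE 0.143, edgeR adjusted p = 6.59e-06). It was highest in gliomaspheres, by 4.79 on the log2 scale against HER2CA astrocytes (SE 0.167, edgeR adjusted p = 1.22e-12), by 2.88 against controls (SE 0.137, edgeR adjusted p = 1.39e-10) and by 1.71 against the 4OH-TAM label (SE 0.124, edgeR adjusted p = 1.85e-08). Bmp7 lies on the minus strand of chromosome 2, from 172868012 to 172940321 in GRCm38.

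Bmp4, the ligand most used to turn glioma stem cells towards astrocytes, was scarce in every group. It was read at 0.210 and 0.304 CPM in gliomaspheres, 1.99 and 1.26 CPM under the 4OH-TAM label, 1.88 and 2.55 CPM in HER2CA astrocytes and 1.27 and 0.741 CPM in controls. Gliomaspheres lay below the other 6 libraries, on only 5 and 3 reads; the 4OH-TAM libraries overlapped with both HER2CA astrocytes and controls. In gliomaspheres Bmp4 was lower than in HER2CA astrocytes (log2 fold change −3.21, SE 0.468, edgeR adjusted p = 1.37e-05), than under the 4OH-TAM label (−2.75, SE 0.497, edgeR adjusted p = 0.000222) and than in controls (−2.07, SE 0.549, edgeR adjusted p = 0.00406). The last difference was no longer called without gliomasphere library A (−1.72, edgeR adjusted p = 0.082). HER2CA astrocytes had more Bmp4 than controls (1.15, SE 0.302, edgeR adjusted p = 0.00292), a call lost without HER2CA library B (0.89, edgeR adjusted p = 0.0585). The 4OH-TAM label did not pass the test against HER2CA astrocytes (−0.47, SE 0.274, edgeR adjusted p = 0.129) or controls (0.68, SE 0.319, edgeR adjusted p = 0.0786), although the first was called without 4OH-TAM library A (−0.83, edgeR adjusted p = 0.0396) and the second without 4OH-TAM library B (edgeR adjusted p = 0.0336) or control library A (edgeR adjusted p = 0.0399). Bmp4 lies on the minus strand of chromosome 14, from 46383520 to 46390669 in GRCm38, where Gm15217 and Gm15222 overlap it on the other strand; the sources used here do not say whether the counting used strand, so their reads may not be told apart from those of Bmp4.

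The type I receptor gene Bmpr1b split the groups into an upper and a lower pair. It stood at 38.3 and 33.0 CPM in gliomaspheres, 34.9 and 36.5 CPM under the 4OH-TAM label, 18.1 and 19.4 CPM in HER2CA astrocytes and 18.9 and 23.4 CPM in controls. The 4 libraries of gliomaspheres and of the 4OH-TAM label all lay above the other 4, and the groups overlapped within each pair. Bmpr1b was higher under the 4OH-TAM label than in HER2CA astrocytes (log2 fold change 0.93, SE 0.109, edgeR adjusted p = 1.5e-06) and than in controls (0.76, SE 0.108, edgeR adjusted p = 3.08e-05). In gliomaspheres it was likewise higher than in HER2CA astrocytes (0.94, SE 0.113, edgeR adjusted p = 1.79e-06) and than in controls (0.77, SE 0.112, edgeR adjusted p = 2.64e-05), the last not called without scaling factors (edgeR adjusted p = 0.241). Gliomaspheres over the 4OH-TAM label did not pass the test (0.01, SE 0.108, edgeR adjusted p = 0.924), and the sign of this value turned with upper-quartile factors (−0.08) or without scaling (−0.37). HER2CA astrocytes over controls did not pass either (−0.17, SE 0.113, edgeR adjusted p = 0.181), but were called without control library A (−0.33, edgeR adjusted p = 0.0265) or with upper-quartile scaling (edgeR adjusted p = 0.0157). Bmpr1b lies on the minus strand of chromosome 3, from 141837136 to 142169425 in GRCm38.

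The 4 Id genes are the readout most often used for BMP signalling. The short DNA words through which SMAD proteins bind, GGCGCC for the GC-rich element of SMAD1 and SMAD5 and CAGAC for the SMAD box, which reads GTCTG on the other strand, were searched on both strands in the 250 bases before each RefSeq start, in the GRCm38.p6 promoter table. Entries were matched for Bmp4, Bmpr1b, Id2, Id3, Id4 and Smad6. None was found for Bmp3, Bmp7 or Id1, and Smad7 was left out of the search. The windows of the Id genes with matches follow, as those Id genes for which the table had an entry. Capitals mark the matched letters, each line runs 5′ to 3′, and of Id2 and Id3 only stretches outside annotated exons or around a match are given.
Id4, chr13:48260866-48261115, plus strand: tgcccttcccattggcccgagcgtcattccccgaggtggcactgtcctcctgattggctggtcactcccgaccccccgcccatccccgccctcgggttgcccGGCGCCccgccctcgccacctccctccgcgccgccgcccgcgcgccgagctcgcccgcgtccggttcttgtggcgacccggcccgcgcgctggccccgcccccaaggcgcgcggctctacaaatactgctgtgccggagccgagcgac
Id2, chr12:25096254-25096342, minus strand: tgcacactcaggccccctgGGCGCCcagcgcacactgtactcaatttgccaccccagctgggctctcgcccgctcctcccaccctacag
Id3, chr4:136143645-136143669, plus strand: tcctcggcgtCAGACcagcctaagg
Id3, chr4:136143744-136143768, plus strand: acccttggcgGTCTGttttgaataa

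The GGCGCC match began 148 bases before the RefSeq start in Id4 and 231 bases before it in Id2. The Id3 matches to the SMAD box began 167 and 68 bases before the RefSeq start of Id3. By the gene bounds given below, which come from another annotation, Id2 and Id3 start farther upstream. Their windows and matches thus lie inside the annotated genes, while the Id4 window lies outside its gene. GGCGCC occurred in 9.59% of all 32851 promoter windows of the table, and the SMAD box in 42.2%, so a match to the second is common. The windows of Bmp4 and Smad6 held neither word, and of the 3 windows of Bmpr1b 2 held a SMAD box and none GGCGCC. GC content was 75.6% in the Id4 window and 62.8% in each of the Id2 and Id3 windows, against a median of 52.4% over the table, and a GC-rich word is met more easily in such windows.

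Id3 had the widest change between HER2CA astrocytes and controls among the Id genes. Its level was 74.9 and 63.6 CPM in gliomaspheres, 115 and 112 CPM under the 4OH-TAM label, 11.3 and 13.5 CPM in HER2CA astrocytes and 95.1 and 113 CPM in controls. HER2CA astrocytes lay far below the other 6 libraries, gliomaspheres lay between, and the 4OH-TAM label overlapped with controls. In HER2CA astrocytes Id3 fell against controls (log2 fold change −3.06, SE 0.114, edgeR adjusted p = 6.26e-12), and under the 4OH-TAM label it was higher than in HER2CA astrocytes (3.18, SE 0.114, edgeR adjusted p = 3.25e-12) by about as much. The 4OH-TAM label over controls did not pass the test (0.12, SE 0.0964, edgeR adjusted p = 0.299; −0.01 without control library A). Gliomaspheres had more Id3 than HER2CA astrocytes (2.49, SE 0.116, edgeR adjusted p = 3.19e-11), less than the 4OH-TAM label (−0.70, SE 0.100, edgeR adjusted p = 2.65e-05) and less than controls (−0.58, SE 0.101, edgeR adjusted p = 0.000142); tested against a 1.5-fold change, the last 2 were not called (adjusted p = 0.184 and 0.718). Id3 lies on the plus strand of chromosome 4, from 136143497 to 136145755 in GRCm38.

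Id4, the family member most tied to neural progenitors, went beyond its control level under the 4OH-TAM label. It stood at 16.9 and 18.9 CPM in gliomaspheres, 95.7 and 92.7 CPM under the 4OH-TAM label, 7.75 and 6.45 CPM in HER2CA astrocytes and 38.9 and 42.6 CPM in controls. No groups overlapped, and each neighbouring pair of the order 4OH-TAM label, control, gliomaspheres, HER2CA passed the test. Id4 was higher under the 4OH-TAM label than in HER2CA astrocytes (log2 fold change 3.74, SE 0.104, edgeR adjusted p = 4.23e-13) and than in controls (1.21, SE 0.0860, edgeR adjusted p = 2.47e-08). In HER2CA astrocytes it fell against controls (−2.53, SE 0.106, edgeR adjusted p = 1.88e-11). Gliomaspheres were above HER2CA astrocytes (1.33, SE 0.119, edgeR adjusted p = 5.86e-08), below controls (−1.20, SE 0.100, edgeR adjusted p = 7.11e-08) and far below the 4OH-TAM label (−2.41, SE 0.0980, edgeR adjusted p = 5.24e-11). Id4 lies on the plus strand of chromosome 13, from 48261228 to 48266026 in GRCm38, where A330033J07Rik and Gm49291 overlap it on the other strand. A330033J07Rik was counted as a gene of its own, with 10 and 2 reads in gliomaspheres, 36 and 33 under the 4OH-TAM label, 6 and 4 in HER2CA astrocytes and 10 and 7 in controls. These few unscaled reads were highest under the 4OH-TAM label, as Id4 was. HER2CA astrocytes lay below controls, again as for Id4, and gliomaspheres overlapped with both.

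Id1 was highest in controls and did not reach that level in the other 3 groups. It was read at 37.4 and 29.7 CPM in gliomaspheres, 47.4 and 43.3 CPM under the 4OH-TAM label, 26.3 and 25.5 CPM in HER2CA astrocytes and 68.3 and 76.7 CPM in controls. No groups overlapped. Id1 fell in HER2CA astrocytes against controls (log2 fold change −1.49, SE 0.101, edgeR adjusted p = 3.61e-09), was higher under the 4OH-TAM label than in HER2CA astrocytes (0.81, SE 0.102, edgeR adjusted p = 3.12e-06) and stayed below controls there (−0.68, SE 0.0969, edgeR adjusted p = 3.05e-05; adjusted p = 0.153 without scaling factors). Gliomaspheres were below controls (−1.09, SE 0.103, edgeR adjusted p = 2.91e-07) and below the 4OH-TAM label (−0.41, SE 0.104, edgeR adjusted p = 0.00339). Their excess over HER2CA astrocytes was small (0.40, SE 0.108, edgeR adjusted p = 0.00319) and was not called without gliomasphere library A (0.20, edgeR adjusted p = 0.14) or without scaling factors (0.14, edgeR adjusted p = 0.696). Id1 lies on the plus strand of chromosome 2, from 152736251 to 152737410 in GRCm38.

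Id2, which is regulated by many signals beside BMP, was low in HER2CA astrocytes and near 1 level elsewhere. Its level was 113 and 102 CPM in gliomaspheres, 118 and 110.4 CPM under the 4OH-TAM label, 61.8 and 56.5 CPM in HER2CA astrocytes and 114 and 127 CPM in controls. Both HER2CA libraries lay below the other 6, which overlapped between gliomaspheres and the 4OH-TAM label and between the 4OH-TAM label and controls. In HER2CA astrocytes Id2 fell against controls (log2 fold change −1.03, SE 0.0832, edgeR adjusted p = 2.49e-08), and it was higher than in HER2CA astrocytes under the 4OH-TAM label (0.95, SE 0.0831, edgeR adjusted p = 5.18e-08) and in gliomaspheres (0.86, SE 0.0846, edgeR adjusted p = 1.71e-07; 0.60 and adjusted p = 0.0678 without scaling factors). The other 3 comparisons did not pass: −0.08 for the 4OH-TAM label over controls (SE 0.0807, edgeR adjusted p = 0.422), −0.16 for gliomaspheres over controls (SE 0.0824, edgeR adjusted p = 0.0926) and −0.09 for gliomaspheres over the 4OH-TAM label (SE 0.0824, edgeR adjusted p = 0.378). The second of these was called without gliomasphere library A (edgeR adjusted p = 0.0336), without control library A (edgeR adjusted p = 0.0431) or with upper-quartile scaling (edgeR adjusted p = 0.0421). Id2 lies on the minus strand of chromosome 12, from 25093799 to 25097140 in GRCm38.

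Levels can be set between genes only per length. Per kilobase of merged exon, the 4 Id genes together stood at 124.6 and 107.9 CPM in gliomaspheres, 178.1 and 169 CPM under the 4OH-TAM label, 56.31 and 54.31 CPM in HER2CA astrocytes and 168.8 and 192.6 CPM in controls. The 4OH-TAM label overlapped with controls in this sum, and HER2CA astrocytes lay below all other libraries. Its make-up also differed between groups. Id3 gave 33.5% and 32.9% of the sum in gliomaspheres, 35.9% and 36.9% under the 4OH-TAM label, 11.2% and 13.8% in HER2CA astrocytes and 31.4% and 32.8% in controls. Id4 gave 3.53% and 4.56% in gliomaspheres, 14% and 14.2% under the 4OH-TAM label, 3.57% and 3.09% in HER2CA astrocytes and 5.99% and 5.74% in controls. On the same per-kilobase scale, the ligand levels were lower than the Id1, Id2 and Id3 levels in every group, but not always lower than Id4. Bmp7 averaged 8.66 CPM per kb in gliomaspheres, its highest group, beside 4.66 for Id4 there. Bmp3 averaged 5.95 CPM per kb in HER2CA astrocytes, its highest group, beside 6.90 for Id3 and 1.84 for Id4.

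**Figure D2:**
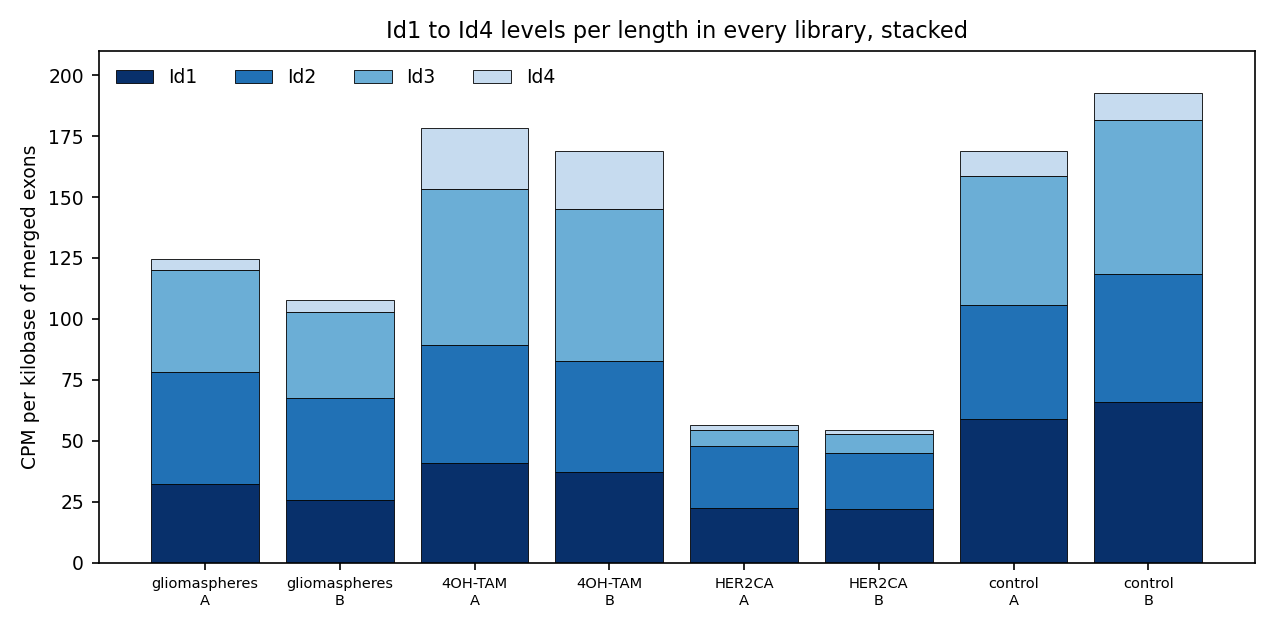
Levels of Id1, Id2, Id3 and Id4 per kilobase of merged exon (CPM per kb, vertical axis), stacked in 1 bar for each library of gliomaspheres, the 4OH-TAM label, HER2CA astrocytes and controls. Id3 and Id4 take a smaller share in HER2CA astrocytes than under the 4OH-TAM label, where Id4 is at its highest.

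The 2 inhibitory SMAD genes are also BMP targets, and they did not share the pattern of the Id genes. Smad6 was read at 0.251 and 0.405 CPM in gliomaspheres, 3.33 and 2.75 CPM under the 4OH-TAM label, 1.88 and 0.931 CPM in HER2CA astrocytes and 1.31 and 1.07 CPM in controls. The 4OH-TAM libraries were the 2 highest and the gliomaspheres, with 6 and 4 reads, the 2 lowest, while HER2CA astrocytes spanned the controls. Smad6 rose under the 4OH-TAM label against HER2CA astrocytes (log2 fold change 1.17, SE 0.271, edgeR adjusted p = 0.00106) and against controls (1.35, SE 0.278, edgeR adjusted p = 0.000727). HER2CA astrocytes over controls did not pass the test (0.18, SE 0.323, edgeR adjusted p = 0.619; −0.35 without HER2CA library A). In gliomaspheres Smad6 was lower than under the 4OH-TAM label (−3.33, SE 0.421, edgeR adjusted p = 7.19e-06), than in HER2CA astrocytes (−2.17, SE 0.493, edgeR adjusted p = 0.000909) and than in controls (−1.98, SE 0.505, edgeR adjusted p = 0.00304), the last lost without gliomasphere library A (−1.55, edgeR adjusted p = 0.0807). Smad6 lies on the minus strand of chromosome 9, from 63953076 to 64022059 in GRCm38.

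Smad7 moved least. Its level was 3.48 and 4.35 CPM in gliomaspheres, 5.74 and 5.39 CPM under the 4OH-TAM label, 4.95 and 6.38 CPM in HER2CA astrocytes and 5.22 and 4.37 CPM in controls. Gliomaspheres were the lowest group, and HER2CA astrocytes overlapped with both the 4OH-TAM label and controls. The 4OH-TAM label did not pass the test against HER2CA astrocytes (log2 fold change −0.04, SE 0.167, edgeR adjusted p = 0.84; 0.17 with upper-quartile factors and 0.0906 without scaling) or controls (0.21, SE 0.171, edgeR adjusted p = 0.295). Against controls, neither HER2CA astrocytes (0.25, SE 0.171, edgeR adjusted p = 0.193) nor gliomaspheres (−0.34, SE 0.197, edgeR adjusted p = 0.138) passed it. Gliomaspheres were lower than HER2CA astrocytes (−0.60, SE 0.192, edgeR adjusted p = 0.0107) and than the 4OH-TAM label (−0.56, SE 0.193, edgeR adjusted p = 0.021). Neither call held without gliomasphere library A (edgeR adjusted p = 0.186 and 0.269); the first was also lost without HER2CA library B (edgeR adjusted p = 0.13), and the second without 4OH-TAM library A (edgeR adjusted p = 0.086) or in DESeq2 (adjusted p = 0.0667). Smad7 lies on the plus strand of chromosome 18 in GRCm38.

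**Figure D3:**
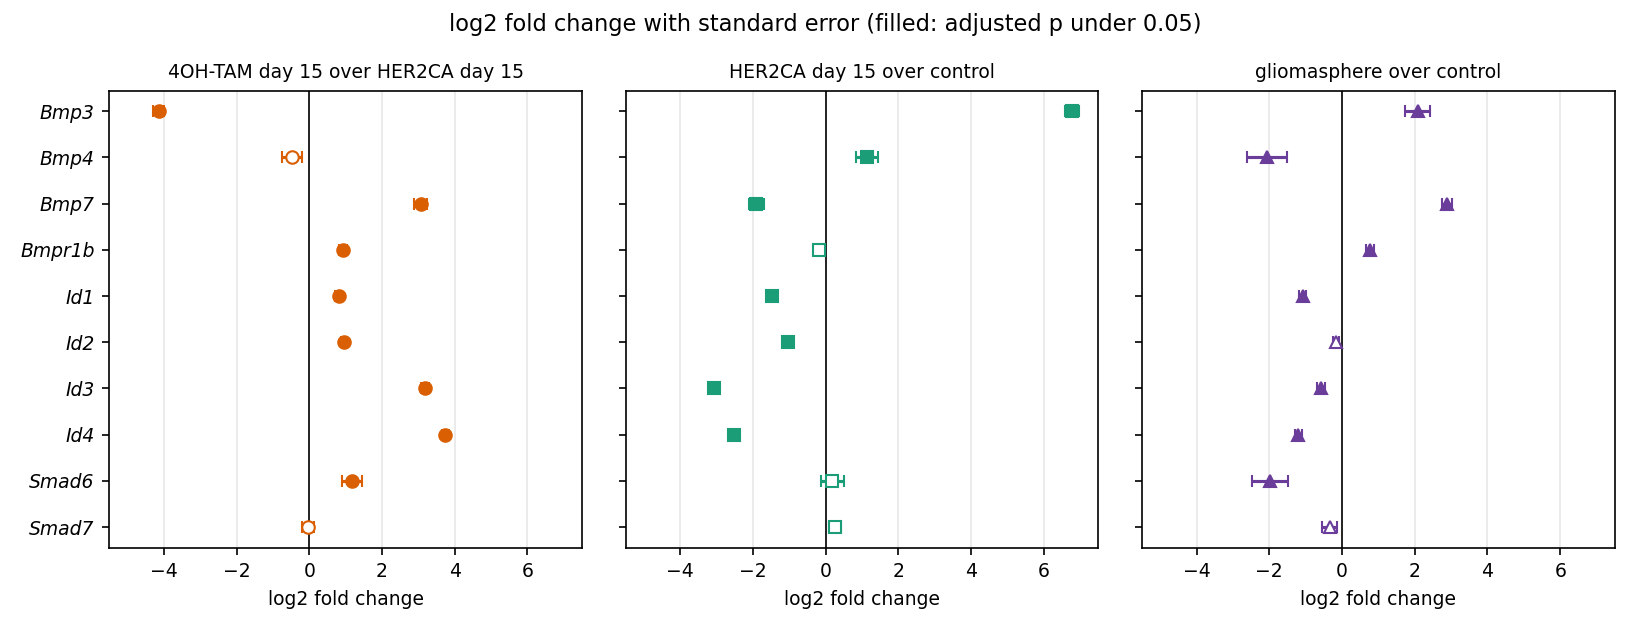
Log2 fold change of the 10 genes (horizontal axis) for the 4OH-TAM label over HER2CA astrocytes, HER2CA astrocytes over controls and gliomaspheres over controls (points, with bars of 1 standard error from the edgeR fit; filled points had an adjusted p under 0.05). Under the 4OH-TAM label against HER2CA astrocytes, Bmp7 and all 4 Id genes lie right of 0 and Bmp3 lies left at −4.14.

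The other genes of the pathway were read from 7 lists of 79 genes, of which 57 were measured. Of these, 36 rose and 11 fell under the 4OH-TAM label against HER2CA astrocytes, with a median log2 fold change of 0.51, where 40.8% of all genes rose and 39.7% fell. In HER2CA astrocytes 11 rose and 28 fell against controls, with a median of −0.30, beside 37.3% and 38.4% of all genes. In gliomaspheres 20 rose and 21 fell against controls, near the shares of all genes, 32.5% and 32.0%. Against HER2CA astrocytes 29 rose and 15 fell in gliomaspheres, beside 38.4% and 40.4% of all genes, and against the 4OH-TAM label 15 rose and 24 fell, beside 31.3% and 29.7%. Against controls, 27 rose and 15 fell under the 4OH-TAM label, beside 31.0% and 28.2%. These shares are the background for each list that follows.

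Of 14 other BMP family ligands 4 were measured, and all 4 rose under the 4OH-TAM label against HER2CA astrocytes, while 3 fell and none rose in HER2CA astrocytes against controls; of all genes 40.8% rose in the first comparison and 38.4% fell in the second. Gdf11, a growth and differentiation factor that acts through activin-type receptors, was at 48.4 and 42.9 CPM in gliomaspheres, 42.0 and 42.0 CPM under the 4OH-TAM label, 8.80 and 9.66 CPM in HER2CA astrocytes and 36.5 and 36.2 CPM in controls (log2 fold change for the 4OH-TAM label over HER2CA astrocytes 2.18, SE 0.0962, edgeR adjusted p = 2.74e-11). Bmp6, an activating ligand, stood apart from Gdf11 in gliomaspheres, at 2.60 and 3.24 CPM there, 28.0 and 26.8 CPM under the 4OH-TAM label, 17.1 and 19.4 CPM in HER2CA astrocytes and 17.8 and 15.1 CPM in controls. Bmp6 fell in gliomaspheres against controls (−2.55, SE 0.161, edgeR adjusted p = 3.21e-09), as Bmp4 did, whereas Bmp7 rose.

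Among receptors and co-receptors, 10 of 12 were measured; 6 rose and 1 fell under the 4OH-TAM label against HER2CA astrocytes, and 1 rose and 4 fell in HER2CA astrocytes against controls. Of all genes 40.8% rose and 39.7% fell in the first and 37.3% rose and 38.4% fell in the second, so the receptors that fell in HER2CA astrocytes were near the background. Their median log2 fold changes, 0.19 and −0.21, were smaller than those of the ligands, 1.47 and −0.96. All 4 signal-carrying SMAD genes were measured. Smad9, which encodes a receptor-activated SMAD, stood at 16.2 and 17.3 CPM in gliomaspheres, 30.3 and 32.8 CPM under the 4OH-TAM label, 6.28 and 4.38 CPM in HER2CA astrocytes and 22.6 and 22.9 CPM in controls. It fell in HER2CA astrocytes against controls (log2 fold change −2.11, SE 0.137, edgeR adjusted p = 1.99e-09) and was higher under the 4OH-TAM label than in HER2CA astrocytes (2.59, SE 0.134, edgeR adjusted p = 1.49e-10). Smad4, the partner shared with TGF-β signalling, went the other way, with 60.1 and 61.3 CPM in gliomaspheres, 67.3 and 74.9 CPM under the 4OH-TAM label, 157 and 156 CPM in HER2CA astrocytes and 86.0 and 84.4 CPM in controls. It rose in HER2CA astrocytes against controls (0.88, SE 0.0710, edgeR adjusted p = 2.47e-08) and was lower under the 4OH-TAM label than in HER2CA astrocytes (−1.14, SE 0.0716, edgeR adjusted p = 1.29e-09).

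Extracellular antagonists and modulators were measured for 13 of 18 genes; 8 rose and 2 fell under the 4OH-TAM label against HER2CA astrocytes, and 2 rose and 7 fell in HER2CA astrocytes against controls, beside 40.8% and 39.7% of all genes in the first comparison and 37.3% and 38.4% in the second. Grem1, which encodes the BMP antagonist gremlin, was at 19.9 and 16.2 CPM in gliomaspheres, 17.3 and 17.1 CPM under the 4OH-TAM label, 19.7 and 19.3 CPM in HER2CA astrocytes and 0.346 and 0.165 CPM in controls, where it had 9 and 4 reads. All 6 libraries of the groups labelled with HER2CA lay far above both controls. For HER2CA astrocytes over controls the log2 fold change was 6.21 (SE 0.227, edgeR adjusted p = 5.2e-12). The 4OH-TAM label did not pass the test against HER2CA astrocytes (−0.18, SE 0.119, edgeR adjusted p = 0.171). The 7 genes that fell in HER2CA astrocytes against controls included Fstl1 (−1.95, SE 0.0801, edgeR adjusted p = 1.52e-11) and Chrdl1 (−1.85, SE 0.0866, edgeR adjusted p = 6.03e-11). Bmper, a modulator that binds BMPs, was at 11.7 and 13.4 CPM in gliomaspheres, 3.45 and 3.71 CPM under the 4OH-TAM label, 0.733 and 0.414 CPM in HER2CA astrocytes and 0.960 and 1.03 CPM in controls, the same order as Bmp7. Fst, which encodes the activin and BMP antagonist follistatin, was lowest in gliomaspheres, at 1.76 and 1.92 CPM, against 10.4 and 8.22 CPM under the 4OH-TAM label, 16.7 and 17.0 CPM in HER2CA astrocytes and 15.2 and 14.2 CPM in controls. Tll1, a protease gene that releases BMPs from chordin, had 106 reads under the 4OH-TAM label against 3 in HER2CA astrocytes. After scaling, the ratio was 34.4 (exact 95% counting interval 11.4 to 169). That interval pools the libraries of each group and leaves out the spread between them. The edgeR fit gave a log2 fold change of 4.98 (SE 0.497, edgeR adjusted p = 2.31e-07).

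The membrane and intracellular brakes were the list with more genes down than up under the 4OH-TAM label: of 9 measured, 2 rose and 6 fell against HER2CA astrocytes, and in HER2CA astrocytes 6 rose and 2 fell against controls. The shares of all genes were 40.8% up and 39.7% down in the first and 37.3% up and 38.4% down in the second. Tob1, which encodes a repressor that binds SMADs, was at 89.0 and 101 CPM in gliomaspheres, 90.2 and 85.3 CPM under the 4OH-TAM label, 244 and 281 CPM in HER2CA astrocytes and 166 and 158 CPM in controls. Smurf2, a ubiquitin ligase that acts on SMADs and receptors, fell under the 4OH-TAM label against HER2CA astrocytes (log2 fold change −0.74, SE 0.0745, edgeR adjusted p = 2.44e-07). Bambi, a decoy receptor gene that BMP signals induce, rose under the 4OH-TAM label against HER2CA astrocytes (1.69, SE 0.161, edgeR adjusted p = 1.33e-07), as did Skil at 0.34, and fell in HER2CA astrocytes against controls (−1.54, SE 0.164, edgeR adjusted p = 5.32e-07), as did Fkbp1a at −0.30. The Bambi level was 3.90 and 3.84 CPM in gliomaspheres, 7.85 and 7.77 CPM under the 4OH-TAM label, 2.11 and 2.66 CPM in HER2CA astrocytes and 7.30 and 6.71 CPM in controls.

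Of 12 other reported BMP targets 9 were measured; 6 rose and 1 fell under the 4OH-TAM label against HER2CA astrocytes, and 1 rose and 3 fell in HER2CA astrocytes against controls. Beside 40.8% and 39.7% of all genes in the first comparison and 37.3% and 38.4% in the second, neither direction of the second exceeded its background. Atoh8, a bHLH gene induced by BMPs in endothelium, was high in the 4OH-TAM label alone, at 9.84 and 9.60 CPM, against 1.63 and 1.72 CPM in gliomaspheres, 1.37 and 1.21 CPM in HER2CA astrocytes and 1.11 and 1.24 CPM in controls (4OH-TAM label over HER2CA astrocytes 2.92 on the log2 scale, SE 0.171, edgeR adjusted p = 5.89e-10). The bHLH partners of Id proteins, 8 of 10 measured, all rose under the 4OH-TAM label and all rose in gliomaspheres against HER2CA astrocytes, and 7 fell in HER2CA astrocytes against controls, where the shares of all genes were 40.8% up, 38.4% up and 38.4% down. Olig1, an oligodendrocyte-lineage factor that is also in the marker list above, was at 2362 and 2156 CPM in gliomaspheres, 446 and 464 CPM under the 4OH-TAM label, 37.7 and 27.5 CPM in HER2CA astrocytes and 153 and 167 CPM in controls. In gliomaspheres against controls, 7 of these 8 partner genes rose (32.5% of all genes), where Id1, Id3 and Id4 fell.

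**Figure D4:**
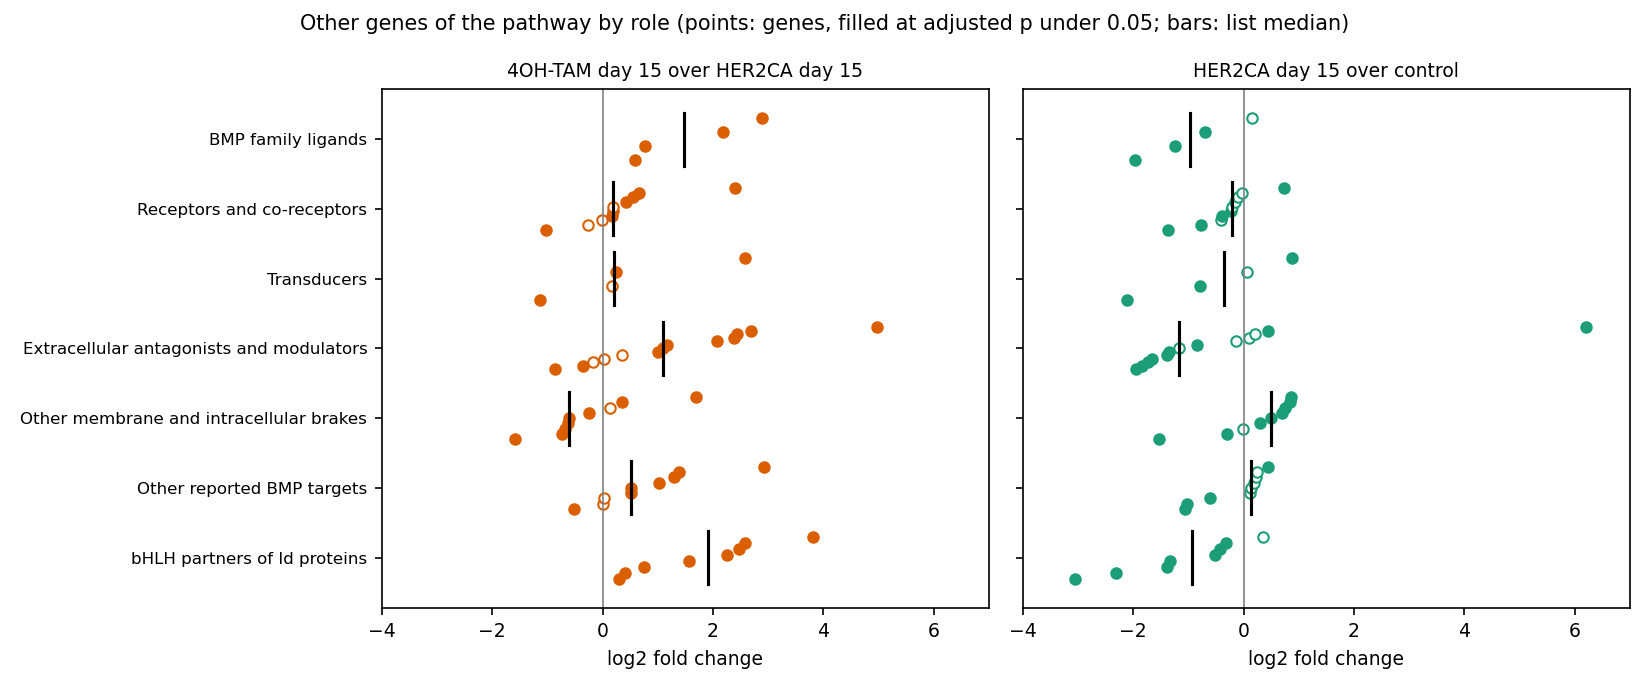
Log2 fold change of the measured genes of the 7 pathway lists (points, 1 per gene, filled where the adjusted p was under 0.05) for the 4OH-TAM label over HER2CA astrocytes and HER2CA astrocytes over controls, with the median of each list as a bar. The list of bHLH partners lies right of 0 in the first comparison with a median of 1.91, while the list of brakes has a median of −0.60. In that comparison the gene farthest right among the antagonists and modulators is Tll1, a modulator, on 3 reads in HER2CA astrocytes.

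The genes with profiles most like 4 of the 10 genes were ranked by Pearson's r of log2(CPM + 1) over the 8 libraries, which form 4 pairs and so leave few independent points, among 11429 genes compared. For Bmp3 these were Atp6v1d (0.997), Dnah10 (0.996) and Cnot10 (0.995), with 591 genes above 0.95. The measure takes no account of size: Cnot10 averaged 45.8 CPM in gliomaspheres, 46.3 CPM under the 4OH-TAM label, 68.4 CPM in HER2CA astrocytes and 40.3 CPM in controls. For Bmp4 they were Slc39a14 (0.997), Tmem216 (0.987) and Pik3cd (0.981), with 32 genes above 0.95. For Id1 they were Junb (0.990), Col4a6 (0.990) and Trim7 (0.988), with 98 such genes, and for Id3 Wipi1, Arsb and Tmem108 (0.997 each), with 383.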

How the data were processed

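RNA of 8 cultures in 4 groups of 2 was sequenced as stranded polyA libraries, per the labels' protocols. The authors deposited raw counts, 1 whole number per gene symbol and library, judging by the values. The submitters' processing notes name STAR 2.5.3a, featureCounts, FastQC, GRCm38 and mm10, with annotation and strand of counting not given in the sources used here. All genes of the table have 1 CPM or more in 2 or more libraries, and scarcer genes were not analysed here; all 10 genes reached it in both libraries of at least 2 groups, and 7 in all 4 groups. Counts were fitted with edgeR 4.0.16 in R 4.3.3 (TMM, 1 mean per group, quasi-likelihood test, 2-sided), with 4 residual degrees of freedom and a common BCV of 0.0685, and p-values were adjusted over all 13607 genes. The step was run on simulated counts in which few genes changed, in a single group. That setting does not cover the large shares of genes called here. Exon lengths and loci came from GENCODE M21, where 96.6% of the symbols were found, and promoters from RefSeq. DESeq2 1.42.0 was an alternative. Correlations of same-lettered deviations from the group means were −0.024 to 0.084, so no shared effect of the letters A and B was seen. This check cannot tell whether libraries of the same letter share an animal or culture. Of each pathway list, up to 3 called genes per comparison with the largest change and no overlap between groups could be named, or any gene of a list with at most 12 measured. The genes and lists were chosen with earlier results of these data known.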

Additional observations from a re-analysis of the deposited data

How the results depend on the processing

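Under 18 alternatives, 37 of the 60 results (10 genes in 6 comparisons) kept their direction and their call, as did 1017 of 1068 pairs of result and alternative; 16 pairs changed sign, 22 lost a call and 13 gained one. None of those 16, all of the 10 genes, had been called. Leaving out edgeR's expression filter was among the 18 alternatives and repeated the main fit, because all 13607 genes passed that filter. Its pairs could therefore not change. The test against 1.5-fold kept the log2 fold changes of the main fit, so it could change calls but not signs. The number of the 10 genes called moved past 1.5 times once, to 4 against 7 for gliomaspheres over the 4OH-TAM label when tested against 1.5-fold (glmTreat). Smad7 under the 4OH-TAM label over HER2CA astrocytes (−0.04) was 0.17 with upper-quartile factors, 0.0906 without scaling, 0.0325 with a filter of 5 CPM in 2 libraries and −0.20 to 0.17 when a library was left out. Bmpr1b in gliomaspheres over the 4OH-TAM label (0.01) was −0.0782 with upper-quartile factors, −0.37 without scaling, −0.0064 with the 5 CPM filter, −0.0047 in a fit of the 2 groups, −0.0053 without Rn45s and Lars2 and −0.11 to 0.0827 when a library was left out. With a library left out, Smad6 in HER2CA astrocytes over controls ran from −0.35 to 0.65, Id3 under the 4OH-TAM label over controls from −0.0083 to 0.25 and Id2 there from −0.16 to 0.0056. Alternatives were followed gene by gene for 126 results of pathway genes, up to 3 per list and comparison. Of these, 4 called results changed sign without scaling. Gliomaspheres over controls were −0.0516 for Bmpr2 (0.31 with TMM), −0.0496 for Rgmb (0.30) and −0.0042 for Smad5 (0.34). Gliomaspheres over the 4OH-TAM label were −0.14 for Smad1 (0.27). Sign changes of the other pathway genes were not followed. Against 1.5-fold, 9 calls of the 10 genes were lost: Bmpr1b and Id1 under the 4OH-TAM label over controls (adjusted p = 0.102 and 0.276), Bmpr1b and Id3 in gliomaspheres over controls (0.0685 and 0.718), Id1 and Smad7 over HER2CA astrocytes (1 and 0.411) and Id1, Id3 and Smad7 over the 4OH-TAM label (1, 0.184 and 0.857). With the replicate letter as a block, 8, 7, 6, 8, 10 and 8 of the 10 genes were called (4OH-TAM label over HER2CA, HER2CA over control, 4OH-TAM label over control, gliomaspheres over control, over HER2CA and over the 4OH-TAM label); the block changed the call of Bmp3 in the last and no other. The 5 CPM filter removed Bmp4 and Smad6. Over the whole table, in the same order, the calls were 10947, 10308, 8061, 8780, 10727 and 8296; against 1.5-fold they were 6071, 5456, 2417, 3393, 6237 and 3025, and without scaling 6375, 5890, 2654 and 4646 for the first 4 and 4199 for the last. Pathway genes called were 47, 39, 42, 41, 44 and 39, against 28, 22, 15, 20, 26 and 18 against 1.5-fold and 31, 24, 17, 23, 28 and 24 without scaling. Upper-quartile factors moved the median of all genes to 0.217 for the 4OH-TAM label over HER2CA astrocytes, with 61.5% of calls higher, and to −0.173 for HER2CA over control; without scaling it was −0.376 for gliomaspheres over the 4OH-TAM label, with 17.8% of calls higher. The cause was not tested. Depth limits Bmp4 and Smad6 in gliomaspheres, with 3 to 6 reads a library.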
